A study of Mus musculus with 18 samples.

Results

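Lysosomal hydrolases and membrane proteins were examined in mouse embryonic stem cells with and without a working Pax7 gene. The genes were chosen by symbol from a list of 42: cathepsins and other lysosomal proteases, glycosidases, sulfatases, enzymes and binding proteins for lipids, and proteins of the lysosomal membrane. Of these, 41 were measured by a probe set of their own among the 22180 genes of the array, and Glb1 was not, because its probe set is also assigned to Tmppe. The cells were F1 hybrids of C57Bl6N and 129Sv mice and were either Pax7+/+ or Pax7-/-. They were compared as undifferentiated cells kept with LIF (day 0), as embryoid bodies (day 7) and as outgrowths of embryoid bodies (day 21). The later stages were grown without LIF and with RA and ITS. Each of the 6 groups had 3 arrays, 18 in all. The labels call the samples biological replicates but name no clone, and they do not say how Pax7 was inactivated or how many clones each genotype stands for. The p-values therefore measure the spread between these samples, and a difference between genotypes cannot be told apart from a difference between clones. Pax7 itself, a paired box transcription factor, read between 4.68 and 6.37 log2 over all groups, and its genotype difference did not pass the test on any day (0.03 ± 0.23, -0.01 ± 0.24 and 0.25 ± 0.24 log2, SE, at days 0, 7 and 21). The labels do not place the probes with respect to the mutation, so this reading checks no label.

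Lysosomes are acid compartments in which proteins, glycans, sulfated sugars and lipids from endocytosis and autophagy are broken down. Most of the enzymes are soluble, receive a mannose 6-phosphate tag in the Golgi and are carried to the lysosome by sorting receptors, while a proton pump, the V-ATPase, keeps the lumen acid. Transcription factors of the TFEB family bind an E-box with the core CACGTG in many lysosomal promoters. Loss of single enzymes causes lysosomal storage diseases, and the visceral endoderm that forms in embryoid bodies is a tissue with much endocytosis and many lysosomes.

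The 18 arrays fell into 2 sets that cross all 6 groups. The 10 arrays called narrow here had an SD of 1.37 to 1.45 log2 over their probe sets. The 8 called wide had 1.79 to 1.85. Each group had 1 or 2 arrays in each set, so groups can lie apart within a set by few values alone. Such separation is given below as description, and the share of all genes that show it is not given. Levels and differences of a gene often differed between the sets, so values are given for each set and were tested with the set as a fixed term in limma. A gene was called where the Benjamini-Hochberg adjusted p over all 22180 genes was under 0.05. Without the set in the model no lysosomal gene was called in any of the 12 comparisons, so every call below rests on reading the arrays within their sets. At an unadjusted p under 0.05, that model gave between 0 and 6 of the 41 genes per comparison, and between 167 and 1235 of all 22180 genes.

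Promoters are shown for 5 of the genes on which the comparisons below turn, to set their E-boxes beside their behaviour. The windows are RefSeq's, on GRCm38.p6, and run from 250 bases before to 50 bases after the annotated start, read 5′ to 3′ on the gene's strand. Capitals mark CACGTG, or TCACGTGA where the longer form is present. For Ctsa and Lgmn, which have a second window, the one that holds a match is shown. Ctsa (chr2:164833523-164833822, plus strand) holds 2 copies of the longer form close to the start. Ctsd (chr7:142387778-142388077, minus strand) holds 1 longer and 1 shorter form, Lamp1 (chr8:13158911-13159210, plus strand) 4 shorter forms, and Lgmn (chr12:102439043-102439342, minus strand) 1 shorter form. Hexa (chr9:59539290-59539589, plus strand) holds neither.
Ctsa: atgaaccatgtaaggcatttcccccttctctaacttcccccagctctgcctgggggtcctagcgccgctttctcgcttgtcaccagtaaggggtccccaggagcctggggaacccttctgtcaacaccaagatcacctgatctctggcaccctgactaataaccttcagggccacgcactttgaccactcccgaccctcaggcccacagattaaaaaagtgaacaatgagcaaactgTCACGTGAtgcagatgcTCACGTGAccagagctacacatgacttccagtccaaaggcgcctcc
Ctsd: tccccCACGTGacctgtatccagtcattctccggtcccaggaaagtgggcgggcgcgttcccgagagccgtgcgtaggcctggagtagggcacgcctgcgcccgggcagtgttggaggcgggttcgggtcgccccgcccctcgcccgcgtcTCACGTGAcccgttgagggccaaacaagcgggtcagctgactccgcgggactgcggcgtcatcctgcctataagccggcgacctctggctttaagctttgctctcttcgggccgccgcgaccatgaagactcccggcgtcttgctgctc
Lamp1: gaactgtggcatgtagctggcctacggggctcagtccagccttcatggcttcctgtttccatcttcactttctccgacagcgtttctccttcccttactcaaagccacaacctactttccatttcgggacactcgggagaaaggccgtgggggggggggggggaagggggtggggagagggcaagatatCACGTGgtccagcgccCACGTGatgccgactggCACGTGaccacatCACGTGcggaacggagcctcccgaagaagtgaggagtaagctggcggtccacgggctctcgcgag
Lgmn: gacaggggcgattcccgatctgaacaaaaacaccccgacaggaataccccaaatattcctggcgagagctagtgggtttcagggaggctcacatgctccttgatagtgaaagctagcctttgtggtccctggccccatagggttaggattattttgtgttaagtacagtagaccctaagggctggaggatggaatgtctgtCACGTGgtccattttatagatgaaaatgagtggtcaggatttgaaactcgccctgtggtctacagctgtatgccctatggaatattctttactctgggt
Hexa: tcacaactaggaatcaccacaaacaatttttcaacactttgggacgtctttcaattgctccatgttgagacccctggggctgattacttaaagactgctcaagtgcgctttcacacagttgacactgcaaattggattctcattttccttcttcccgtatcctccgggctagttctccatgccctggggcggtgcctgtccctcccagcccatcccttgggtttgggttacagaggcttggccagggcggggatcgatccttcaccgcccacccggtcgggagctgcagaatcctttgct

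Of the 42 genes, 37 matched the promoter table. CACGTG, which reads the same on both strands, stood in at least 1 window of 13 of them (35.1%), against 8.09% of all 27025 genes in the table. TCACGTGA, which contains CACGTG and also reads the same on both strands, stood in 4 (10.8%): Ctsa, Ctsd, Gla and Mcoln1, against 1.12% of all genes. The first bases of the 2 longer copies in Ctsa lay at -13 and 5 relative to the start, and that in Ctsd at -99. In Lamp1 the 4 copies began at -61, -45, -28 and -15. A second window of Ctsa (chr2:164832622-164832921) and a second of Lgmn (chr12:102439679-102439978), at other annotated starts, held no match. These second windows lie at the outer 5′ end of the annotated gene, and the windows printed lie at a start inside it. Both genes count as holding CACGTG only through the window printed. The median GC content was 56.7% in the windows of the lysosomal genes and 52.7% over the whole table. Of the 12 measured genes with CACGTG, 4 were called lower in Pax7-/- on some day, and of the 24 without it, also 4. A match describes these letters in this window and shows no binding.

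Signal was present for most of the genes. The mean over 18 arrays lay above that of the median gene (5.21 log2) for 38 of the 41, and 31 read above their array's own median on all 18 arrays. The exceptions below the median gene were Ctss, which trims peptides for antigen presentation, Ctsk, the collagen-cleaving cathepsin of osteoclasts, and the sulfatase Arsa. They read above their array's median on 10, 10 and 8 of 18 arrays. For Ctsh and Scarb2 this was so on 13 and 12 arrays. Arsb, Smpd1 and Npc1 had a second probe set whose correlation with the one used was 0.0, -0.59 and 0.49 over the 18 arrays, so their values depend on the probe set.

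**Figure D1:**
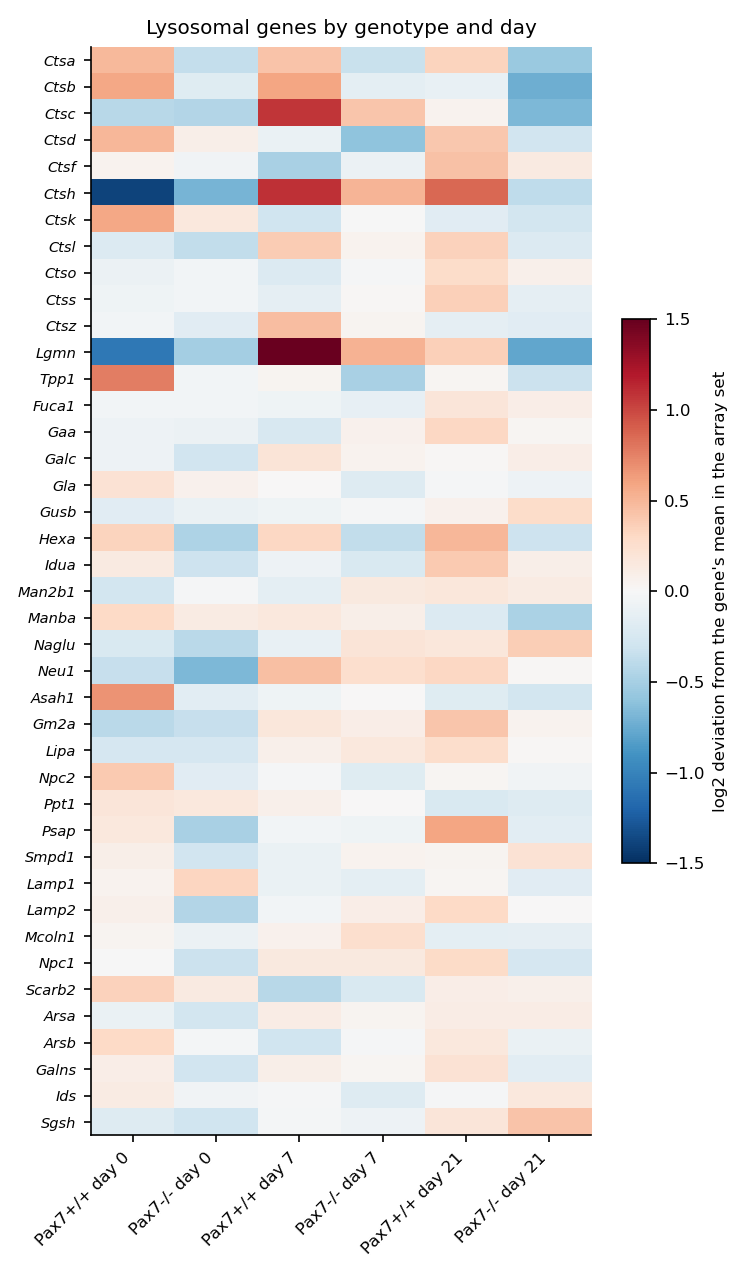
Colour shows, for each of the 41 lysosomal genes (rows, grouped by role) and each genotype and day (columns, 3 arrays each), the mean log2 deviation of the group's arrays from the gene's mean in the same array set, on a scale from -1.5 to 1.5. Lgmn and Ctsh are low at day 0 and high at day 7, and Hexa, Ctsa and Ctsb are lower in Pax7-/- than in Pax7+/+ on each day.

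Between the genotypes, the lysosomal genes that were called were all lower in Pax7-/-. At day 0, 6 of 41 were called lower and 0 higher, against 0.893% and 0.388% of all genes. At day 7, 3 were called lower and 0 higher, against 0.307% and 0.32%, and at day 21, 6 lower and 0 higher, against 1.07% and 3.82%. At an unadjusted p under 0.05 in limma, 14, 12 and 16 of the 41 differed in either direction, against 2506, 2209 and 3831 of all 22180 genes. Among the 11090 genes with a mean above the median gene, where 38 of the 41 lay, 1.77%, 0.559% and 1.97% were called lower on the 3 days. The median difference over the 41 genes was -0.18, -0.06 and -0.26 log2 at days 0, 7 and 21, beside 0.01, -0.01 and -0.01 over all genes. Without the array set in the model it was -0.18, -0.45 and 0.14, so its direction at day 21 turned. On the same days 33, 25 and 32 of the 41 lay below 0, where all genes had 48.5% below 0 at day 0 and 51.3% at day 21. In these bulk samples, fewer cells of a type and less RNA per cell cannot be told apart. The 3 days use separate arrays, and 9 of the 41 genes were called on at least 1 of them. The share of all genes called on at least 1 day is not given.

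**Figure D2:**
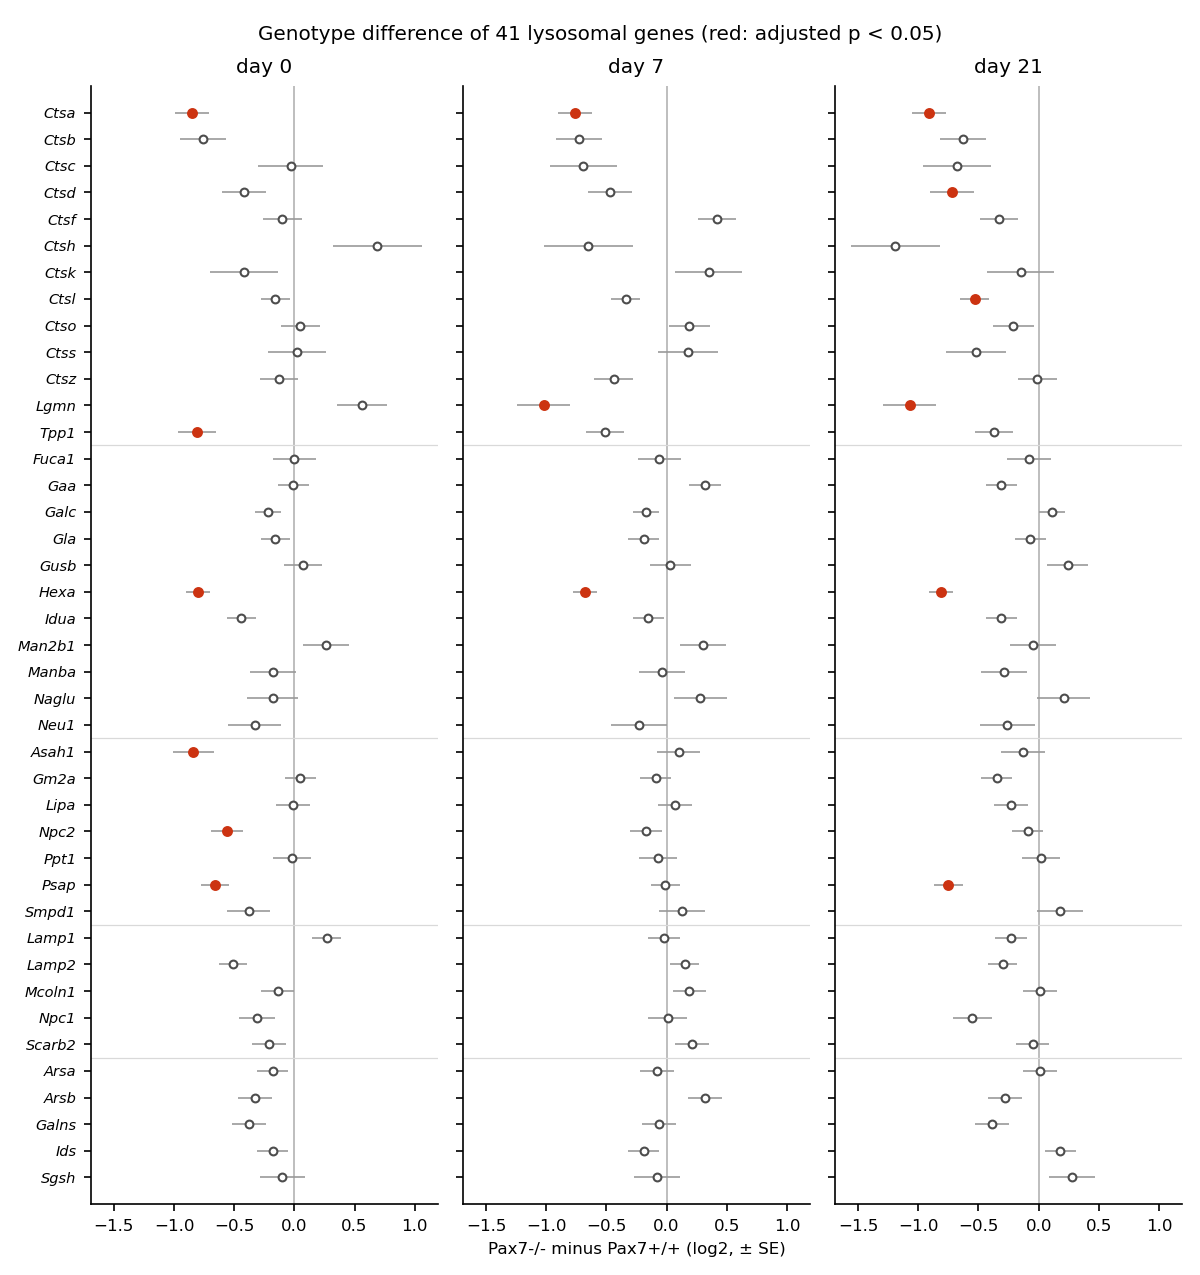
Each point is the difference Pax7-/- minus Pax7+/+ of 1 lysosomal gene at day 0, 7 or 21 (log2, from the model with the array set, bars ± SE, 3 arrays per group), and red points passed an adjusted p of 0.05. All red points lie left of 0, and the 13 proteases at the top are all below 0 at day 21.

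Hexa and Ctsa were called lower in Pax7-/- on all 3 days. Over the whole array 4 genes were, the others being Cyb5r3 and Snora73b. Hexa encodes the alpha subunit of beta-hexosaminidase A, which degrades the ganglioside GM2. At day 0 its Pax7+/+ arrays read 6.42 and 6.04 log2 (narrow) and 9.04 (wide), and its Pax7-/- arrays 5.42 and 5.39 (narrow) and 8.28 (wide). At day 7 the Pax7+/+ values were 6.26 (narrow), 8.92 and 9.06 (wide), against 5.51 and 5.55 (narrow) and 8.31 (wide) in Pax7-/-. At day 21 they were 6.44 and 6.33 (narrow) and 9.20 (wide), against 5.54 (narrow), 8.37 and 8.45 (wide). Within either set, no Pax7-/- array reached a Pax7+/+ array of its day. The difference was -0.80 ± 0.10 log2 at day 0 (adjusted p = 0.00081), -0.68 ± 0.10 at day 7 (0.00725) and -0.81 ± 0.10 at day 21 (0.000389). The call held on each day when any 1 of the 18 arrays was left out. No step between days was called for Hexa in either genotype.

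Ctsa encodes a serine carboxypeptidase, also called protective protein, that holds the sialidase Neu1 and beta-galactosidase in a stable complex. At day 0 it read 9.30 and 8.93 log2 (narrow) and 10.07 (wide) in Pax7+/+, and 8.15 and 8.21 (narrow) and 9.38 (wide) in Pax7-/-. At day 7 it read 9.07 (narrow), 10.04 and 10.14 (wide), against 7.97 and 8.36 (narrow) and 9.48 (wide). At day 21 the values were 9.0 and 8.91 (narrow) and 9.93 (wide), against 7.76 (narrow), 9.31 and 9.20 (wide). The genotypes did not overlap within a set on any day. The differences were -0.85 ± 0.14, -0.76 ± 0.14 and -0.91 ± 0.14 log2 at days 0, 7 and 21 (adjusted p = 0.00556, 0.0252 and 0.00149). At day 7 the call was lost without any 1 of the 6 arrays of that day (adjusted p up to 0.1), while those of days 0 and 21 held without any 1 array. As with Hexa, no step between days was called for Ctsa.

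**Figure D3:**
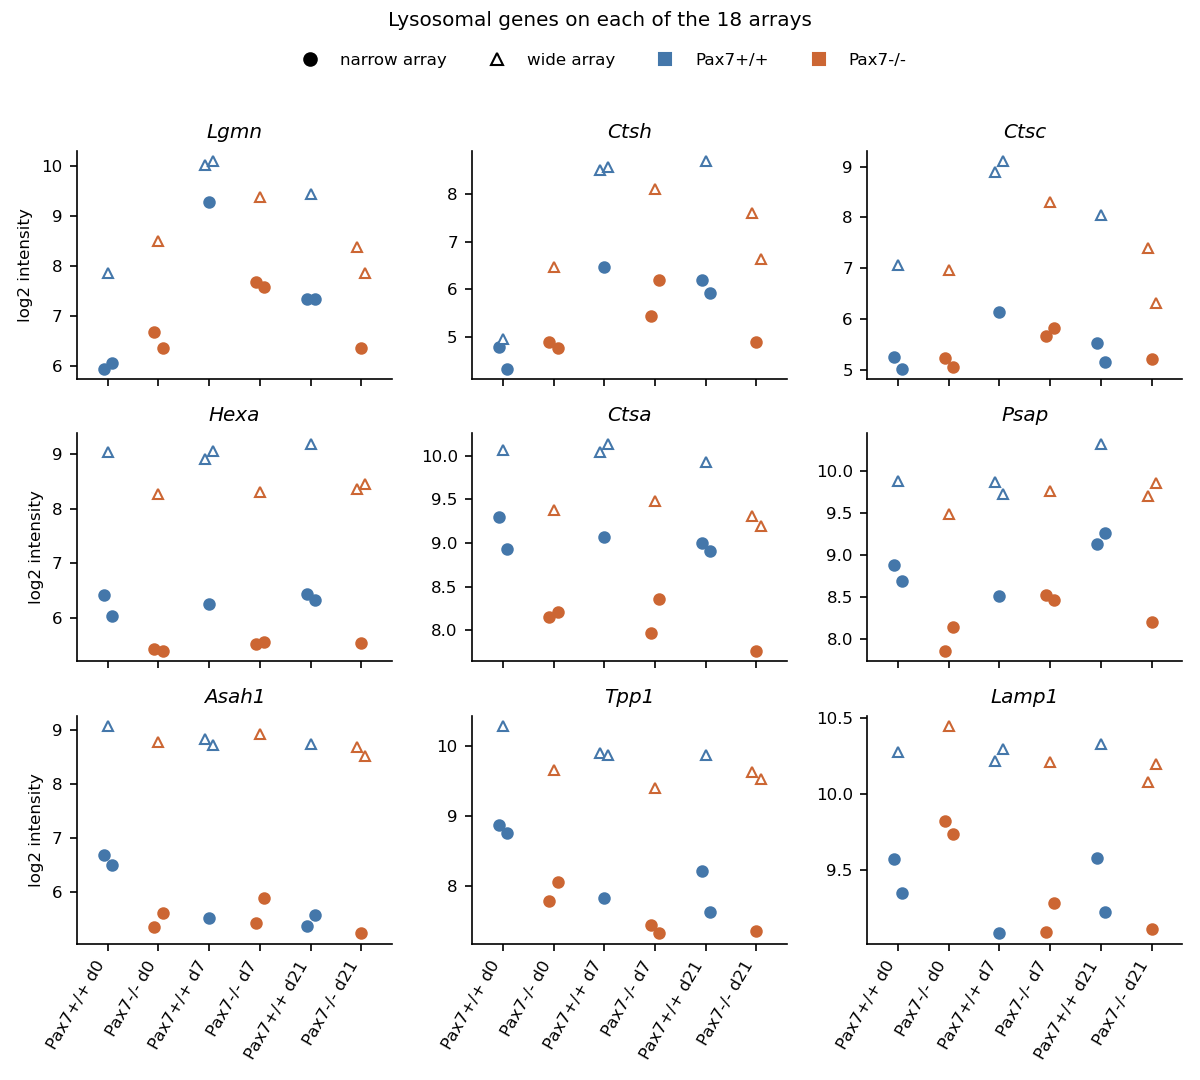
Log2 intensity (vertical axes, each with its own range) of 9 lysosomal genes on each of the 18 arrays, by genotype and day, with filled circles for narrow and open triangles for wide arrays. For Hexa and Ctsa the Pax7-/- symbols of a set lie below the Pax7+/+ symbols of that set on each day, and Lgmn peaks at day 7 in Pax7+/+, at 9.28 to 10.10.

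At day 0, genes for sphingolipid and cholesterol handling were also called lower in Pax7-/-. Asah1, acid ceramidase, read 6.69 and 6.50 log2 (narrow) and 9.08 (wide) in Pax7+/+ and 5.36 and 5.61 (narrow) and 8.78 (wide) in Pax7-/-. The difference was -0.84 ± 0.17 (adjusted p = 0.0248), with -1.11 on narrow and -0.30 on wide arrays, and the call was lost without any of 5 of the 6 day 0 arrays, all except Pax7+/+ replicate 3 (adjusted p up to 0.121). Psap, the precursor of the saposins that present sphingolipids to their enzymes, read 8.88, 8.69 (narrow) and 9.89 (wide) against 7.86, 8.15 (narrow) and 9.49 (wide). Its difference was -0.66 ± 0.12 (adjusted p = 0.0132), and it was lost without Pax7+/+ replicate 1 or Pax7-/- replicate 1 of day 0 (adjusted p up to 0.0814). Npc2, which hands cholesterol to the membrane protein Npc1, read 6.86, 6.69 and 8.54 against 6.21, 6.16 and 8.02, in the same order of sets. Its difference of -0.56 ± 0.13 (adjusted p = 0.0471) lay near the threshold and was lost in 14 of the 18 fits with 1 array left out (adjusted p up to 0.171). The 4 arrays without which it was kept were the wide Pax7+/+ arrays of day 7 replicate 3 and day 21 replicate 2, the narrow Pax7+/+ replicate 3 of day 21 and the wide Pax7-/- replicate 2 of day 7. For each of the 3 genes the genotypes did not overlap within a set, though the wide set holds 1 array per genotype at day 0 and cannot overlap.

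Tpp1, a protease that removes tripeptides from the ends of proteins, read 8.87 and 8.76 log2 (narrow) and 10.28 (wide) in Pax7+/+ at day 0 and 7.78, 8.06 (narrow) and 9.65 (wide) in Pax7-/-. The difference was -0.81 ± 0.16 (adjusted p = 0.0202). It was lost without replicate 1 or 2 of either genotype at day 0 (adjusted p up to 0.106). At days 7 and 21 its difference was -0.51 ± 0.16 and -0.37 ± 0.16, with adjusted p = 0.215 and 0.257. By role, the day 0 calls fell on 2 of 13 proteases, 1 of 11 glycosidases, 3 of 7 lipid enzymes and binding proteins, 0 of 5 sulfatases and 0 of 5 membrane proteins. Lamp2, a heavily glycosylated membrane protein needed in autophagy, stood just outside the threshold at day 0 with -0.51 ± 0.12 (adjusted p = 0.0516). Lamp1, its closest relative, went the other way with 0.27 ± 0.12 (adjusted p = 0.429).

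Lgmn was the gene whose genotype difference turned over time. It encodes legumain, an endopeptidase that cuts after asparagine and processes several cathepsins to their mature forms. At day 0 it read 5.95 and 6.06 log2 (narrow) and 7.86 (wide) in Pax7+/+, and 6.68 and 6.36 (narrow) and 8.51 (wide) in Pax7-/-. At day 7 it read 9.28 (narrow), 10.02 and 10.10 (wide) in Pax7+/+, and 7.69 and 7.58 (narrow) and 9.38 (wide) in Pax7-/-. At day 21 the values were 7.35 and 7.35 (narrow) and 9.45 (wide), against 6.37 (narrow), 8.39 and 7.87 (wide). Within the sets, the Pax7-/- arrays were the higher ones at day 0 and the lower ones at days 7 and 21, without overlap on any day.

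The difference in Lgmn was 0.56 ± 0.21 log2 at day 0, which did not pass (adjusted p = 0.3), -1.02 ± 0.22 at day 7 (2.02-fold lower, adjusted p = 0.0477) and -1.07 ± 0.22 at day 21 (2.10-fold lower, adjusted p = 0.00886). The day 7 call was lost in 14 of the 18 fits with 1 array left out (adjusted p up to 0.16), and the 4 arrays without which it was kept were the wide arrays of day 0 and of day 21 replicate 2 in each genotype. The day 21 call was lost without Pax7+/+ replicate 2, the single wide array of its group (adjusted p = 0.0638). The change of the genotype difference itself was tested. From day 0 to day 7 it was -1.57 ± 0.31 (adjusted p = 0.031), and from day 0 to day 21 it was -1.63 ± 0.31 (adjusted p = 0.0122). The first was lost without any of 8 arrays, namely the 3 of Pax7-/- at day 7 and all of day 0 except Pax7-/- replicate 3 (adjusted p up to 0.0903), and the second held without any 1 array.

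Of the 41 genes, 1 was called for a change of the genotype difference from day 0 to day 7, against 0.482% of all genes. For the step from day 7 to day 21 it was 0, against 0.911%. There 6 had an unadjusted p under 0.05 in limma, against 2284 of all 22180 genes. From day 0 to day 21, 1 was called, against 1.86%. Both calls were Lgmn. Ctsh also stood higher in Pax7-/- at day 0 and lower at days 7 and 21, and its change was not called. At day 0 its means were 4.83 (narrow) and 6.46 (wide) in Pax7-/- against 4.56 and 4.95 in Pax7+/+. At day 7 they were 5.81 and 8.12 against 6.48 and 8.55. From day 7 to day 21 limma gave the smallest p for Psap (-0.74 ± 0.18, adjusted p = 0.0685) and for Gaa, which degrades glycogen (-0.63 ± 0.19, adjusted p = 0.172). For the other genes, a call in a step of 1 genotype and not in the other is not a tested difference between genotypes.

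At day 21 the calls fell on 4 of 13 proteases, 1 of 11 glycosidases and 1 of 7 lipid genes, and on none of the 5 sulfatases and 5 membrane proteins at an adjusted p of 0.05. All 13 proteases lay below 0, with a median of -0.53 log2. Psap read 9.13 and 9.27 log2 (narrow) and 10.33 (wide) in Pax7+/+ and 8.20 (narrow), 9.71 and 9.86 (wide) in Pax7-/-. Its difference was -0.75 ± 0.12 (adjusted p = 0.00219) and held without any 1 array, whereas at day 7 it had been -0.01 ± 0.12. Ctsd, the aspartic protease cathepsin D, read 8.85 and 8.67 (narrow) and 10.31 (wide) against 7.60 (narrow), 9.91 and 9.79 (wide). Its difference was -0.72 ± 0.18 (adjusted p = 0.0334), lost without any of 5 of the 6 day 21 arrays, all except Pax7-/- replicate 2 (adjusted p up to 0.197).

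Ctsl, the cysteine protease cathepsin L, read 9.68 and 9.48 log2 (narrow) and 10.73 (wide) in Pax7+/+ at day 21, against 8.88 (narrow), 10.36 and 10.22 (wide) in Pax7-/-. The difference was -0.53 ± 0.12 (adjusted p = 0.0187) and was lost without Pax7+/+ replicate 1 or 2 or Pax7-/- replicate 1 or 3 of day 21 (adjusted p up to 0.111). For Psap, Ctsd and Ctsl the genotypes did not overlap within a set. Ctsb, another cysteine protease, had a difference of similar size on each day and was called on none: -0.76 ± 0.19, -0.73 ± 0.19 and -0.63 ± 0.19 log2 (adjusted p = 0.0598, 0.102 and 0.0744), with Pax7-/- arrays below Pax7+/+ arrays in both sets. After quantile normalization it was called lower on all 3 days (adjusted p = 0.0213, 0.0248 and 0.00426 in limma). Ctsh, an aminopeptidase, had the largest difference among the 41 at day 21 and a large error, -1.19 ± 0.37 (adjusted p = 0.089). Npc1, the membrane protein that exports cholesterol, stood at -0.55 ± 0.16 (adjusted p = 0.0597). Both were called lower after quantile normalization (adjusted p = 0.0076 and 0.0453 in limma).

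Below 0 on all 3 days were 15 of the 41 genes: Ctsa, Ctsb, Ctsc, Ctsd, Ctsl, Ctsz, Tpp1, Hexa, Gla, Idua, Manba, Neu1, Galns, Psap and Npc2. Above 0 on all 3 days was Gusb. Of all genes, 13.9% lay below and 14% above 0 on all 3 days. Position in the genome was set beside these differences. On chromosomes 8 and 11, genes above the median gene had median differences of 0.12, 0.19 and 0.26 (chromosome 8, 629 genes) and 0.12, 0.19 and 0.23 log2 (chromosome 11, 943 genes) at days 0, 7 and 21. Galns, Asah1, Man2b1, Lamp1 and Mcoln1 lie on chromosome 8 and Gaa, Naglu, Sgsh and Gm2a on chromosome 11. Their own medians were -0.14, 0.10 and -0.13 for the former and -0.05, 0.10 and -0.05 for the latter. The 8 genes other than Asah1 that were called between genotypes lie on chromosomes 2, 7, 9, 10, 12 and 13, where the medians of genes above the median gene lay between -0.06 and 0.06.

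Markers of cells rich in lysosomes or likely to form in these cultures were read beside the genotype differences. Of 20 macrophage markers, 0 were called between genotypes on any day by limma, with 1, 0 and 8 at an unadjusted p under 0.05 at days 0, 7 and 21. Of all 22180 genes, 2506, 2209 and 3831 had such a p on these days. At day 21 all 20 macrophage markers lay below 0. Their median difference was -0.38 log2, -0.15 within the narrow and -0.81 within the wide set, while at days 0 and 7 the median was -0.04 and 0.11. Ptprc, the pan-leukocyte marker CD45, read below its array's median on all 18 arrays, and Adgre1, F4/80, on 17. Csf1r, the receptor for macrophage colony-stimulating factor, read above it on 15 arrays, and the myeloid transcription factor Spi1 and Cd68, a lysosomal protein of macrophages, on all 18. The log2 of the summed macrophage markers at day 21 was 9.88 on both narrow arrays and 10.27 on the wide array in Pax7+/+, against 9.75 on the narrow and 9.47 to 9.54 on the wide arrays in Pax7-/-. Of 15 parietal endoderm markers, 4 were higher in Pax7-/- at day 0 and 6 were lower at day 21. At day 21 their log2 sum was 13.57 to 13.62 (narrow) and 14.25 (wide) in Pax7+/+ and 12.36 (narrow) and 13.67 to 13.73 (wide) in Pax7-/-. Of 17 visceral endoderm markers, 2 were higher at day 0 and 1 was lower at day 21, when 16 lay below 0 with a median of -0.76. Of 19 fibroblast and mesenchyme markers, 2 were called lower at day 0, when 18 lay below 0 with a median of -0.52. None of them was called at day 7, when 6 had an unadjusted p under 0.05 in limma and 17 lay above 0 with a median of 0.41. At day 21, 3 were called lower and the median was -0.26. Of 18 pluripotency markers, 0 were called at day 0, 1 lower at day 7, and 4 higher and 1 lower at day 21. Of 12 neuron markers, none was called at days 0 and 7, and 3 were higher at day 21. Of 8 osteoclast markers, none was called on any day, with 1, 2 and 2 at an unadjusted p under 0.05 in limma. Of all genes, 0.388% were called higher and 0.893% lower at day 0, 0.32% and 0.307% at day 7, and 3.82% and 1.07% at day 21. The part of these cells in the lysosomal differences was not tested.

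From day 0 to day 7, as stem cells formed embryoid bodies, the proteases Lgmn, Ctsh and Ctsc had the largest rises in Pax7+/+, while of all 13 proteases 4 rose and 1 fell there and their median was -0.07 log2. In Pax7-/- 1 protease, Lgmn, rose and 1, Ctsd, fell. In Pax7+/+, 6 of 41 genes rose and 4 fell, against 2.54% and 3.14% of all genes, and in Pax7-/- 3 rose and 2 fell, against 2.05% and 1.82%. Among the 11090 genes with a mean above the median gene, 4.41% rose and 5.85% fell in Pax7+/+. In Pax7-/- these shares were 4% and 3.48%, while 7.32% of the 41 genes rose and 4.88% fell. Lgmn rose by 2.61 ± 0.22 log2 in Pax7+/+ (6.10-fold, adjusted p = 2.84e-06) and by 1.03 ± 0.21 in Pax7-/- (2.05-fold, adjusted p = 0.0116). The Pax7-/- call was lost without replicate 3 of day 0 or replicate 1 of day 7 (adjusted p up to 0.0549). Ctsh read 4.78 and 4.33 (narrow) and 4.95 (wide) in Pax7+/+ at day 0 and 6.48 (narrow), 8.51 and 8.58 (wide) at day 7, a rise of 2.55 ± 0.37 (adjusted p = 0.000581). At day 0 it lay below the array's median on both narrow arrays, and the files give no detection call, so its rises are not given as folds. In Pax7-/- it read 4.90, 4.76 (narrow) and 6.46 (wide) at day 0 and 5.43, 6.19 (narrow) and 8.12 (wide) at day 7, a difference of 1.21 ± 0.37 (adjusted p = 0.0817). The change of the genotype difference in Ctsh, -1.33 ± 0.52, did not pass (adjusted p = 0.408). Lgmn and Ctsh in Pax7+/+ were higher at day 7 than at day 0 on each array of the same set.

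Ctsc, which activates serine proteases of granules by removing dipeptides, read 5.24 and 5.02 log2 (narrow) and 7.06 (wide) in Pax7+/+ at day 0 and 6.13 (narrow), 8.90 and 9.11 (wide) at day 7. It rose by 1.52 ± 0.28 (2.86-fold, adjusted p = 0.00359), and the difference in Pax7-/- was 0.85 ± 0.27 (adjusted p = 0.1). The rises of Lgmn, Ctsh and Ctsc in Pax7+/+ held without any 1 array. Also in Pax7+/+, Ctsl rose by 0.60 ± 0.12 (adjusted p = 0.00724, lost without replicate 3 of day 0, adjusted p = 0.0682), and Gm2a, the activator protein that lifts GM2 out of the membrane for Hexa, rose by 0.60 ± 0.13 (adjusted p = 0.0122). The Gm2a call was lost without Pax7+/+ replicate 3 of day 0 or replicate 1 or 3 of day 7 (adjusted p up to 0.127). Neu1, which removes sialic acid, was called higher in both genotypes, by 0.83 ± 0.23 (adjusted p = 0.0439) and 0.92 ± 0.22 (adjusted p = 0.0286). Its Pax7+/+ call was lost in 11 of 18 fits with 1 array left out (adjusted p up to 0.328), among them those without any one of the arrays compared except replicate 1 of day 7. Its Pax7-/- call was lost without replicate 2 of day 0 or any array of day 7 (adjusted p up to 0.186).

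The falls over the same step were smaller. In Pax7+/+, Scarb2, the membrane protein LIMP-2 that carries glucocerebrosidase to the lysosome, read 5.28 and 5.03 log2 (narrow) and 7.11 (wide) at day 0 and 4.57 (narrow), 6.22 and 6.0 (wide) at day 7. It fell by 0.78 ± 0.14 (adjusted p = 0.00313) and kept the call without any 1 array. Asah1 fell by 0.78 ± 0.18 (adjusted p = 0.0152), Tpp1 by 0.75 ± 0.16 (adjusted p = 0.0122) and the sulfatase Arsb by 0.63 ± 0.14 (adjusted p = 0.0156). With 1 array left out their adjusted p rose to 0.0612, 0.0594 and 0.156. Asah1 lost its call without Pax7+/+ replicate 1 of day 0 or replicate 1 or 3 of day 7. Tpp1 lost it without replicate 1 of either day, and Arsb without replicate 3 of day 0 or replicate 2 or 3 of day 7. Asah1 and Tpp1 are 2 of the genes that had been lower in Pax7-/- at day 0, and their differences in Pax7-/- over the step were 0.16 ± 0.17 and -0.45 ± 0.16, neither called.

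In Pax7-/- the membrane proteins moved in opposite directions from day 0 to day 7. Lamp2 read 6.30 and 6.20 log2 (narrow) and 7.85 (wide) at day 0 and 6.67, 7.02 (narrow) and 8.28 (wide) at day 7, and rose by 0.54 ± 0.12 (adjusted p = 0.0194). Lamp1 read 9.82, 9.74 (narrow) and 10.45 (wide) at day 0 and 9.09, 9.28 (narrow) and 10.21 (wide) at day 7, and fell by 0.48 ± 0.12 (adjusted p = 0.0423). Ctsd fell by 0.68 ± 0.18 (adjusted p = 0.045). The Lamp2 call was lost without Pax7-/- replicate 2 or 3 of day 0 or replicate 3 of day 7 (adjusted p up to 0.101), and those of Lamp1 and Ctsd were lost in 11 and 13 of 18 fits (adjusted p up to 0.167 and 0.16). These included the fits without any one of the 6 arrays compared, except that Lamp1 kept its call without the wide replicate 2 of day 0. In Pax7+/+ the same step gave -0.12 ± 0.12 for Lamp2, -0.18 ± 0.13 for Lamp1 and -0.63 ± 0.18 for Ctsd, with adjusted p = 0.721, 0.521 and 0.0579.

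**Figure D4:**
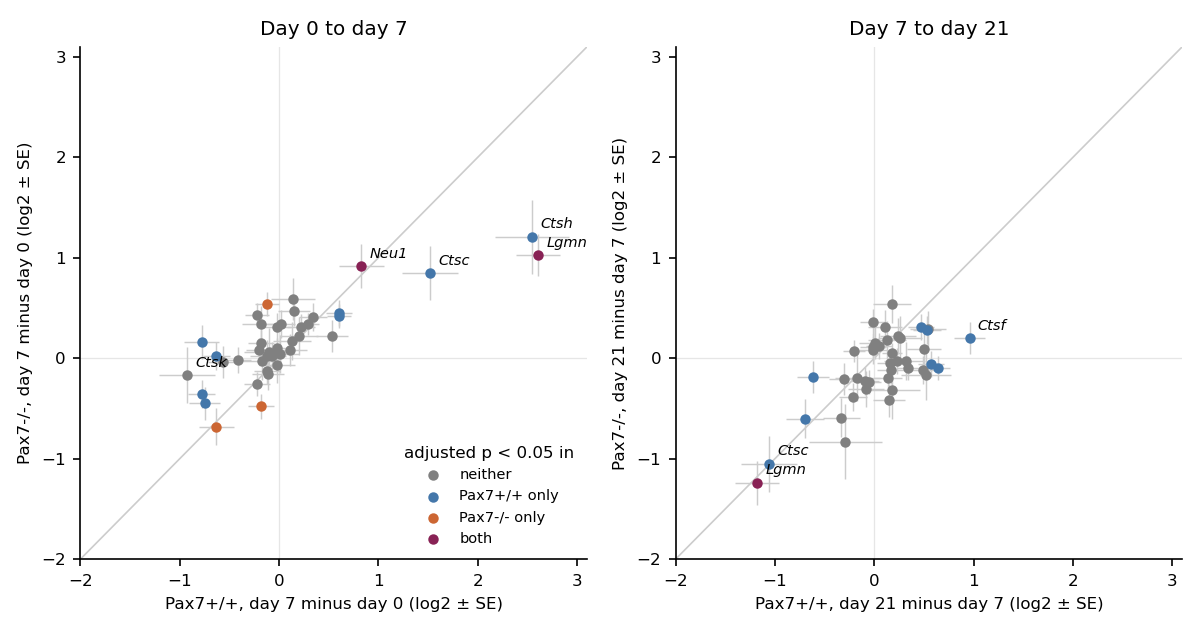
Each point is 1 of the 41 lysosomal genes, with its log2 difference over a step in Pax7+/+ on the horizontal and in Pax7-/- on the vertical axis (bars ± SE, 3 arrays per group, diagonal where both are equal), coloured by the genotype in which the step passed an adjusted p of 0.05. From day 0 to day 7 Lgmn (2.61 and 1.03) and Ctsh (2.55 and 1.21) lie below the diagonal, and from day 7 to day 21 Lgmn (-1.18 and -1.24) lies on it.

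From day 7 to day 21, as embryoid bodies attached and grew out, the proteases Lgmn, Ctsc, Ctsb and Ctsz fell in Pax7+/+ and Lgmn fell in Pax7-/-. Of the 13 proteases 1 rose in Pax7+/+, and their median there was -0.05 log2. In Pax7+/+, 5 of 41 genes rose and 4 fell, against 1.37% and 4.48% of all genes, and in Pax7-/- 0 rose and 1 fell, against 0.455% and 0.379%. Among the 11090 genes with a mean above the median gene, 2.36% rose and 8.54% fell in Pax7+/+. In Pax7-/- these shares were 0.839% and 0.757%. The 4 falls in Pax7+/+ were 9.76% of the 41 genes, near the share of genes above the median gene. In the fit over both sets, Lgmn fell by a like amount in both genotypes, by 1.18 ± 0.22 log2 in Pax7+/+ (adjusted p = 0.00428) and by 1.24 ± 0.22 in Pax7-/- (adjusted p = 0.0136). The latter was lost without Pax7-/- replicate 1 or 2 of day 7 or replicate 3 of day 21 (adjusted p up to 0.0793). Within the sets the genotypes were less alike. Means of Lgmn went from 9.28 to 7.35 (narrow) and from 10.06 to 9.45 (wide) in Pax7+/+. In Pax7-/- they went from 7.63 to 6.37 (narrow) and from 9.38 to 8.13 (wide). In Pax7+/+, Ctsc fell by 1.06 ± 0.28 (adjusted p = 0.0343), from 6.13 (narrow), 8.90 and 9.11 (wide) to 5.52 and 5.15 (narrow) and 8.04 (wide). Ctsb fell by 0.70 ± 0.19 (adjusted p = 0.0392) and Ctsz, a carboxypeptidase, by 0.62 ± 0.16 (adjusted p = 0.0297). With 1 array left out, the calls of Ctsc, Ctsb and Ctsz were lost in 4, 7 and 5 of 18 fits (adjusted p up to 0.146, 0.196 and 0.11). For Ctsc these were the fits without Pax7+/+ replicate 2 or 3 of day 7 or replicate 1 or 3 of day 21. For Ctsz they were those without any day 7 array or replicate 1 or 3 of day 21 of Pax7+/+, and for Ctsb the same 5 with Pax7+/+ replicate 2 of day 0 and Pax7-/- replicate 2 of day 7.

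Rising over this step in Pax7+/+ was Ctsf, a cysteine protease, which read 4.65 log2 (narrow), 5.47 and 5.87 (wide) at day 7 and 5.49, 5.57 (narrow) and 6.82 (wide) at day 21. It rose by 0.96 ± 0.16 (adjusted p = 0.00261). On the narrow array of day 7 it lay below the array's median, so its rise is not given as a fold. Psap rose by 0.64 ± 0.12 (adjusted p = 0.00549), and both calls held without any 1 array. Gaa rose by 0.57 ± 0.13 (adjusted p = 0.0155), Scarb2 by 0.53 ± 0.14 (adjusted p = 0.0339) and Idua, which removes iduronic acid from glycosaminoglycans, by 0.47 ± 0.13 (adjusted p = 0.0396). Their calls were lost in 3, 4 and 11 of 18 fits with 1 array left out (adjusted p up to 0.0718, 0.146 and 0.249). For Gaa these were the fits without Pax7+/+ replicate 1 or 3 of day 7 or replicate 3 of day 21, and for Scarb2 those without replicate 2 or 3 of day 7 or replicate 1 or 3 of day 21. Idua lost its call without any one of the 6 arrays compared and without any one of 5 arrays of other groups. In Pax7-/- the differences of Ctsf, Psap, Gaa, Scarb2 and Idua were 0.20 ± 0.16, -0.10 ± 0.12, -0.06 ± 0.13, 0.28 ± 0.14 and 0.31 ± 0.13, none called.

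Over the whole course from day 0 to day 21, 6 of 41 genes were higher and 3 lower in Pax7+/+, against 4.97% and 9.64% of all genes. In Pax7-/- 4 were higher and 1 lower, against 4.92% and 4.04%. Among the 11090 genes with a mean above the median gene, 7.79% were higher and 18.4% lower in Pax7+/+. In Pax7-/- these shares were 8.12% and 7.29%. Of the 41 genes, 14.6% were higher and 7.32% lower in Pax7+/+, and 9.76% and 2.44% in Pax7-/-. The Pax7-/- share of higher genes thus lay near that of genes above the median gene. In Pax7+/+ Ctsh read 6.20 and 5.92 log2 (narrow) and 8.70 (wide) at day 21 and was 2.25 ± 0.37 above day 0 (adjusted p = 0.000461). Lgmn was 1.43 ± 0.21 higher (adjusted p = 0.000218), Gm2a 0.82 ± 0.13 (adjusted p = 0.0003) and Ctsl 0.55 ± 0.12 (adjusted p = 0.00433), while Asah1 fell by 0.86 ± 0.17 (adjusted p = 0.00259) and Tpp1 by 0.74 ± 0.16 (adjusted p = 0.00444). These 6 calls held without any 1 array. Lipa, the acid lipase for cholesteryl esters, was higher by 0.51 ± 0.14 (adjusted p = 0.0228), Psap by 0.42 ± 0.12 (adjusted p = 0.0271), and Ctsb fell by 0.69 ± 0.19 (adjusted p = 0.0188). Their adjusted p rose to 0.159, 0.149 and 0.0892 in the 4, 4 and 3 fits that lost them. Those of Lipa left out Pax7+/+ replicate 1 or 3 of day 0 or replicate 2 or 3 of day 21, those of Psap replicate 2 or 3 of day 0 or replicate 1 or 3 of day 21, and those of Ctsb replicate 1 of day 0 or replicate 1 or 3 of day 21.

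In Pax7-/- Naglu, Sgsh, Lamp2 and Galc were higher at day 21 than at day 0. Naglu and Sgsh, which act in turn on heparan sulfate, read 4.75 and 4.95 log2 (narrow) and 5.50 (wide), and 5.73, 5.45 (narrow) and 5.83 (wide), at day 0. At day 21 Naglu read 5.19 (narrow), 6.57 and 6.90 (wide) and Sgsh 5.87 (narrow), 6.91 and 7.26 (wide). Naglu was 0.79 ± 0.22 higher (adjusted p = 0.0331) and Sgsh 0.76 ± 0.19 (adjusted p = 0.0214), mainly on wide arrays, with 1.24 and 1.25 there against 0.34 and 0.28 on narrow arrays. In Pax7+/+ both stood above day 0 without passing, Naglu by 0.40 ± 0.21 (adjusted p = 0.24) and Sgsh by 0.38 ± 0.19 (adjusted p = 0.203), and on its wide arrays by 0.93 and 0.68. Lamp2 was 0.44 ± 0.12 higher (adjusted p = 0.0381) and Galc, which degrades galactosylceramide, 0.42 ± 0.11 (adjusted p = 0.031), while Lamp1 fell by 0.52 ± 0.13 (adjusted p = 0.018). None of these 5 was called for a change of the genotype difference from day 0 to day 21 (adjusted p from 0.196 to 0.647). None of the 5 calls held without every array: they were lost in 4 (Naglu), 3 (Sgsh), 7 (Lamp2), 4 (Galc) and 2 (Lamp1) of 18 fits, with adjusted p up to 0.285, 0.231, 0.15, 0.263 and 0.0619. Leaving out the wide Pax7-/- replicate 2 of day 21 lost all 5. Replicate 2 of day 0 lost all except Lamp1, replicate 3 of day 21 all except Lamp1, replicate 1 of day 0 Naglu and Lamp2, and replicate 1 of day 21 Galc and Lamp1. Lamp2 was lost also without replicate 3 of day 0 and without 2 Pax7+/+ arrays, replicate 2 of day 0 and replicate 1 of day 7. Ctsh, at 0.38 ± 0.37, and Lgmn, at -0.20 ± 0.22, were not called in Pax7-/- over this course, and the change of the genotype difference in Ctsh was -1.87 ± 0.52 (adjusted p = 0.0861).

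Endoderm markers rose between days 0 and 7 in both genotypes, the step in which Lgmn rose in both and Ctsh and Ctsc in Pax7+/+. Between days 0 and 7, 12 of 15 parietal and 6 of 17 visceral endoderm markers rose in Pax7+/+, and 10 and 4 in Pax7-/-, with none called lower. Of all genes, 2.54% rose in Pax7+/+ and 2.05% in Pax7-/-. On wide arrays the log2 of the summed visceral endoderm markers went from 9.58 to between 12.32 and 12.52 in Pax7+/+ and from 10.63 to 12.49 in Pax7-/-. At day 21 it was 12.68 in Pax7+/+ and 11.04 to 11.44 in Pax7-/-. On narrow arrays it went from between 10.28 and 10.31 to 11.25 and then to between 11.12 and 11.15 in Pax7+/+, and from between 10.44 and 10.46 to between 11.28 and 11.29 and then to 10.57 in Pax7-/-. Of 19 fibroblast and mesenchyme markers, 7 fell and 1 rose in Pax7+/+ from day 0 to day 7 (median -0.86), and 8 rose from day 7 to day 21 (median 1.17). In Pax7-/- 0 fell and 1 rose in the first step (median 0.18), with 5 at an unadjusted p under 0.05 in limma. In the second step none was called (median 0.06), with 2 at an unadjusted p under 0.05. Of all 22180 genes, 3667 and 2685 had such a p in these steps. For 4 of the 19 the genotype difference was called as changed from day 0 to day 7. Of 18 pluripotency markers, 15 were lower at day 21 than at day 0 in each genotype, against 9.64% (Pax7+/+) and 4.04% (Pax7-/-) of all genes. At day 21, 4 of the 18 were higher in Pax7-/- than in Pax7+/+ and 1 was lower. The part of any of these cell types in the lysosomal changes was not tested.

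Other genes of the lysosome were read from separate lists. Position in the genome was not set beside the genotype differences of the genes on any of these lists. At day 21, genes above the median gene had median differences between genotypes of 0.26 log2 on chromosome 8 and 0.23 on chromosome 11. The part of such shifts in the calls of these lists was not tested. Of 37 further lysosomal enzymes and membrane proteins, 1 was lower in Pax7-/- at day 0. This was Scpep1, a serine carboxypeptidase (-0.78 ± 0.18, adjusted p = 0.0409 in limma), lost in 13 of 18 fits with 1 array left out. At day 7, 0 were called, and 7 had an unadjusted p under 0.05 in limma, against 2209 of all 22180 genes. At day 21, 1 was higher (Laptm4b, 0.96 ± 0.23) and 1 lower (the ion channel Tpcn1, -0.72 ± 0.19). Between days 0 and 7, 2 rose and 1 fell in Pax7+/+ and 4 rose in Pax7-/-. These were 5.41%, 2.7% and 10.8% of the 37, against 2.54%, 3.14% and 2.05% of all genes. Ctns, which exports cystine, rose in both genotypes, by 1.07 ± 0.13 and 1.05 ± 0.13 log2. Of 24 V-ATPase subunits and accessory proteins, Atp6ap1 (-0.64 ± 0.12 and -0.67 ± 0.13) and Atp6v0b (-0.52 ± 0.11 and -0.60 ± 0.12) were lower in Pax7-/- at days 0 and 21, and Atp6v0d1 (0.60 ± 0.14) and Atp6v1b2 (1.04 ± 0.28) were higher at day 21. Atp6v0a1 rose from day 0 to day 7 by 1.23 ± 0.12 in Pax7+/+ and 0.94 ± 0.12 in Pax7-/-. From day 0 to day 21, 6 of the 24 (25%) fell and 1 rose in Pax7+/+, and 5 (20.8%) fell in Pax7-/-. Of all genes, 9.64% and 4.04% fell over this course in Pax7+/+ and Pax7-/-. Of genes above the median gene, 18.4% and 7.29% did.

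Among 10 sorting receptors and enzymes of the mannose 6-phosphate pathway, Igf2r, the large mannose 6-phosphate receptor and an imprinted gene, was lower in Pax7-/- by limma at day 7 (-1.28 ± 0.19 log2, adjusted p = 0.00709) and day 21 (-1.77 ± 0.19, adjusted p = 0.000111), but not at day 0 (-0.15 ± 0.18, adjusted p = 0.818). M6pr, the smaller receptor, was lower at day 21 than at day 0 in both genotypes (-0.86 ± 0.16 and -1.11 ± 0.16). Lrp2, the multiligand receptor of endoderm, rose from day 0 to day 7 by 1.75 ± 0.18 in Pax7+/+ and 0.69 ± 0.18 in Pax7-/-. Of 10 cathepsin inhibitors, Cst3, cystatin C, rose over that step by 0.62 ± 0.13 and 0.72 ± 0.12. Of 22 regulators, 0 were called between genotypes at days 0 and 7 by limma. At an unadjusted p under 0.05 there were 5 and 2, against 2506 and 2209 of all 22180 genes. At day 21 Rragb (0.93 ± 0.18), Rragd (0.69 ± 0.18) and Rptor (0.51 ± 0.14), which act in nutrient sensing at the lysosome, were higher. Tfeb itself had genotype differences of 0.02 ± 0.14, -0.15 ± 0.15 and -0.30 ± 0.15, none called. Its relatives Tfe3 and Tfec were called from day 0 to day 7 in Pax7+/+, at -0.51 ± 0.10 and 1.20 ± 0.29. Of 25 autophagy genes, 5 fell in Pax7+/+ over that step, among them Map1lc3b (-1.19 ± 0.22), and 3 fell in Pax7-/-, among them Ulk1 (-0.77 ± 0.12). Over the same step 3.14% and 1.82% of all genes fell, and 5.85% and 3.48% of genes above the median gene.

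In all, 26 of the 41 genes were called in at least 1 of the 12 comparisons, 23 of them between days and 9 between genotypes. The share of all genes called in at least 1 of the 12 is not given, so these counts stand without a background. The 15 called in none were the proteases Ctsk, Ctso and Ctss, the glycosidases Fuca1, Gla, Gusb, Man2b1 and Manba, the sulfatases Arsa, Galns and Ids, the lipid enzymes Ppt1 and Smpd1, and the membrane proteins Mcoln1 and Npc1. Their differences lay between -0.93 and 0.77 log2, both extremes being Ctsk. The smallest adjusted p among them was 0.0597, for Npc1 in Pax7-/- against Pax7+/+ at day 21, followed by 0.0599 for Manba. A gene that was not called may still have changed, since 3 arrays per group limit the size of change that can be seen.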

How the data were processed

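RNA of mouse embryonic stem cells and their derivatives was measured on 18 Affymetrix arrays. The authors deposited log2 intensities, 1 per probe set and array, and the submitters' processing notes name RMA and Partek, with no version or order. Of 41345 probe sets, 23521 carried 1 gene symbol in the platform annotation, 1814 several and 16010 none. For each symbol the probe set with the highest mean was kept, which gave 22180 genes, 1082 of them with several probe sets. Low signal was no reason to drop a gene.

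Groups were taken from the labels. Arrays with an SD over probe sets above 1.6 log2 were called wide and the others narrow. Pearson correlations over probe sets were 0.914 to 0.9904 within and 0.653 to 0.789 between sets, and array medians were 4.55 to 4.97 log2. Their number limits the precision. The tests used R 4.3.3 and limma 3.58.1 (lmFit with 6 group means and the array set, contrasts, eBayes without trend, 11 residual degrees of freedom), and p-values were adjusted by Benjamini-Hochberg over all genes. The 12 comparisons were the genotypes on each day, the steps between days in each genotype and the changes of the genotype difference. Comparisons of 1 genotype or day share arrays.

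The genes, the other gene lists, the array sets and the tests were chosen with earlier results of these data known, so no pattern here is independent of those. Called members were described by their values on each array: up to 6 per genotype comparison or change of it by size, and up to 5 rises and 5 falls per step between days. Where none was called, those with the smallest p are given. From each other list up to 3 called genes per comparison may be named. A sixth riser in a step, Tfeb, Lrp2, the genes near the threshold and those called on all 3 days were added after their values were seen. Summed marker levels are log2 of the sum of linear intensities. Promoter windows came from RefSeq (GRCm38.p6), matched by gene identifier and symbol. The code was tested on simulated data before use. Alternatives were quantile normalization, median centring, all probe sets averaged, only genes above the median, a threshold of 0.01, eBayes with trend, a replicate block, no array set, and leaving out each array. Python 3.11.15, pandas 2.3.3 and matplotlib 3.10.9 were used.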

Additional observations from a re-analysis of the deposited data

Results flagged for a closer look

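The genotype difference of Lgmn differed between days, by the test of that difference in limma. It moved by -1.57 ± 0.31 log2 (SE) from day 0 to day 7 (adjusted p = 0.031) and by -1.63 ± 0.31 from day 0 to day 21 (adjusted p = 0.0122). Both steps share the day 0 arrays. On narrow and wide arrays the first change was -2.16 and -1.33, and the second -1.49 and -1.96.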

How the results depend on the processing

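Without the array set in the model, 0 of the 41 genes were called in any of the 12 comparisons. Of the 56 values picked by the rule for describing members, 5 changed sign. These were Hexa at day 21 (0.13 log2), Asah1 from day 0 to day 7 in Pax7+/+ (0.28) and Scarb2 from day 7 to day 21 in Pax7+/+ (-0.04). The others were the changes of the genotype difference from day 7 to day 21 in Psap (0.13) and Gaa (0.37). Values given above outside these 56 are not in this count, and some of them also turned. Among these were the genotype differences at day 21 of Npc1, Tpp1 and Pax7 (-0.10 for Pax7). The median of the 41 genes also turned, to 0.14 between genotypes at day 21, to 0.40 and -0.25 in Pax7+/+ from day 0 to 7 and 7 to 21, to 0.33 in Pax7-/- from day 7 to 21, and to -0.27 and 0.71 for the changes of the genotype difference from day 0 to 7 and 7 to 21. Under the other alternatives run none of the 56 picked values changed sign. At an adjusted p threshold of 0.01 the calls numbered 2 at day 0 and 1 at day 7 between genotypes. Between days 0 and 7 there were 5 in Pax7+/+ and 0 in Pax7-/-, between days 7 and 21 3 and 0, between days 0 and 21 0 in Pax7-/-, and 0 for the changes of the genotype difference from day 0 to days 7 and 21. Quantile normalization gave 9, 3 and 9 calls in Pax7-/- between days 0 and 7, 7 and 21, and 0 and 21. It gave 14 in Pax7+/+ between days 0 and 21, and for changes of the genotype difference 1 between days 7 and 21 and 3 between days 0 and 21. Testing genes above the median alone gave 9 in Pax7-/- in each step that starts at day 0, and 2 changes of the genotype difference between days 0 and 21.

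Whether replicate numbers pair the arrays is not settled. Deviations of same-numbered arrays from the model correlated at -0.22 to 0.23, with 3 of 9 pairs over 0.1. At day 21 they correlated at 0.193, 0.231 and -0.051 for replicates 1, 2 and 3. Deviations within a group sum to 0, so correlations of both signs are built in. With the replicate block beside the array set, 1 gene was called between genotypes at day 7, 2 and 3 in Pax7-/- from day 0 to days 7 and 21, and 0 for the change of the genotype difference from day 0 to day 7. With 1 array left out, calls between genotypes ranged from 2 to 8, 1 to 3 and 3 to 8 at days 0, 7 and 21. At day 0 they were 2 without replicate 1 and 3 without replicate 2 of either genotype, at day 7 they were 1 without any one array of that day, and at day 21 they were 3 without Pax7+/+ replicate 2. In Pax7+/+ they ranged from 6 to 12, 3 to 9 and 7 to 11 over the steps from day 0 to 7, 7 to 21 and 0 to 21, and in Pax7-/- from 1 to 7, 0 to 3 and 0 to 8. The Pax7+/+ count from day 0 to day 7 was 6 without replicate 3 of day 7, and that from day 7 to day 21 was 3 or 4 without replicate 2 or 3 of day 7 or 1 or 3 of day 21. In Pax7-/- the count from day 0 to day 7 was 1 to 3 without 5 of the 6 arrays compared, each alone, or without Pax7+/+ replicate 2 of day 0 or 2 or 3 of day 7. That from day 0 to day 21 was 0 or 1 without replicate 2 of day 0 or 2 or 3 of day 21, and 8 without Pax7+/+ replicate 2 of day 21. For the changes of the genotype difference over these steps they ranged from 0 to 1, 0 to 1 and 1 to 2. Of the 56 picked values, 21 stayed on their side of the threshold in all 18 such fits. The cause was not tested.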
